A study of Rattus norvegicus with 32 samples.

Results

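The subunits of the mitochondrial respiratory chain encoded in the nucleus were described in the intestinal mucosa of 32 male Zucker rats. Members were the genes whose symbol names a subunit of complex I (Nduf), II (Sdh), III (Uqcr) or IV (Cox4 to Cox8), measured by a probe set with 1 gene symbol. This gave 68 of the 17245 genes so measured, with 82 of 29214 probe sets, chosen by symbol. A gene with several probe sets was given by the one with the highest mean. Ndufa4, despite its symbol, was counted among the general subunits of complex IV. Complex I thus had 38 members, complex II 4, complex III 8 and complex IV 18. By role they were 6 core and 25 accessory subunits of complex I, 12 subunits of complexes II and III, 11 general subunits and 5 tissue isoforms of complex IV, 1 supercomplex factor (Cox7a2l) and 8 genes under the symbol of a copy or pseudogene.

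Each rat gave 1 Affymetrix Rat Gene 1.1 ST array. The genotypes compared were lean rats with 1 copy of the fa allele of the leptin receptor (Zucker-lean+/fa, hereafter ZL) and rats labelled obese with 2 copies (Zucker-Leprfa/fa, hereafter ZO). The controls thus carry the allele too. The paper describes the ZO rats as still lean at baseline. There were 4 ZL rats (C1 to C4) and 4 ZO rats (Z1 to Z4) killed at baseline, 4 ZL rats (C11, C13, C15, C16) and 4 ZO rats (Z11, Z13, Z15, Z16) given placebo, a powder of milk, sucrose and vitamin C, for 30 days, and 16 ZO rats given probiotic bacteria for 30 days. Per the methods each of the 16 received 1 of several Lactobacillus or Bifidobacterium strains or a mixture, but the labels do not say which, so they were treated as 1 group. The labels give 1 age for all rats, which cannot hold for groups killed 30 days apart. The gut segment is not named. Values are log2 RMA signals, and since probes differ in affinity, a higher level of one probe set than of another does not mean more RNA.

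The respiratory chain lies in the inner mitochondrial membrane. Complex I takes electrons from NADH and complex II from succinate, both pass them to ubiquinone, complex III passes them to cytochrome c, and complex IV passes them to oxygen, while I, III and IV pump the protons that drive ATP synthase. Enterocytes spend much of this ATP on nutrient transport. The transcription factors NRF1, GABP (NRF2), YY1 and the estrogen-related receptors are known to bind near the starts of many nuclear genes for these subunits.

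Promoters are shown for Ndufs1 and Ndufs5, which were called below, and for Ndufs4 and Uqcrc1, which came next to the threshold against ZL placebo rats. Ndufa8 is not shown. Each runs 250 bases before to 30 bases after the RefSeq start (build GRCr8), on the strand of the gene. They are Ndufs1 at chr9:72073576-72073855 (minus strand), Ndufs4 at chr2:47794885-47795164 (minus), Ndufs5 at chr5:141264373-141264652 (minus) and Uqcrc1 at chr8:118467973-118468252 (plus). Capitals mark a match to a motif for GABP in Ndufs1, YY1 in Ndufs4, and NRF1 and then YY1 in Uqcrc1, and Ndufs5 held none of the motifs searched.
Ndufs1: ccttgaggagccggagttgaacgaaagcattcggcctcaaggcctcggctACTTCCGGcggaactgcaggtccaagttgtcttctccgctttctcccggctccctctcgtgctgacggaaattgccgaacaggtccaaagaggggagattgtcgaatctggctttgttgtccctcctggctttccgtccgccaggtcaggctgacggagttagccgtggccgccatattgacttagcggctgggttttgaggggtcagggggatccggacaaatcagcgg
Ndufs4: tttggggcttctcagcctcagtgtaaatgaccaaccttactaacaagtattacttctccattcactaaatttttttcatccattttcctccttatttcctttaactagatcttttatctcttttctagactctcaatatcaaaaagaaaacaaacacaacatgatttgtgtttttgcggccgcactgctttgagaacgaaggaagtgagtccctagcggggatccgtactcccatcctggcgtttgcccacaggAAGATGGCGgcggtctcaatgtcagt
Ndufs5: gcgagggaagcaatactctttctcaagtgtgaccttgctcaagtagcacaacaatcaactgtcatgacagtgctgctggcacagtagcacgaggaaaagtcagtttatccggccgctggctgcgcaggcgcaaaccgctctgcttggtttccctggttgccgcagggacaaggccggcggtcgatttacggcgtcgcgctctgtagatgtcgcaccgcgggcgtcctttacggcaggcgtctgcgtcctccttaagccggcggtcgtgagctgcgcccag
Uqcrc1: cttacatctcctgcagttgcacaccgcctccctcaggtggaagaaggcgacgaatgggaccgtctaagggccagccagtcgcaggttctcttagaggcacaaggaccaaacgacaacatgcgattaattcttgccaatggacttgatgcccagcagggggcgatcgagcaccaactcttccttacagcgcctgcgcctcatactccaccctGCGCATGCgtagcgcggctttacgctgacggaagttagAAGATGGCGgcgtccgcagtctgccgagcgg

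A promoter of 300 bases was given for 56 of the 68 members. On both strands, the letters AAGATGGCG (YY1) were found in 7 of the 56 (12.5%) and in 1.73% of all 33469 promoters. The letters CCGGAAGT (GABP) were found in 6 members (10.7%) and in 3.81% of all promoters, and GCGCATGC (NRF1) in 5 members (8.93%) and 2.47% of all. TCAAGGTCA (estrogen-related receptors) was found in 1 member, Sdhd (1.79%), and in 0.433% of all promoters. The letters TATAAA, those of a TATA box, were found at any position in 5 members (8.93%) and in 14.2% of all promoters. In all, 21 members held at least 1 of these motifs and 3 held more than 1. Counted from the first base of the transcript as 1, the YY1 letters began at 5 in Ndufs4 and in Ndufs7 and at -1 in Uqcrc1, whose NRF1 letters began at -39. The GABP letters of Ndufs1 began at -200 and lay on the other strand. A match to letters is a description and not a measured binding site.

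The arrays resembled each other, with medians of 4.79 to 4.97 and no pair correlating below 0.979, but 3 stood apart in the members. C13, a ZL rat on placebo, was the highest of the 32 arrays in 51 of the 68 members (75%), against 7.66% of all probe sets. C3, a ZL rat at baseline, was the lowest in 27 members, against 12% of all probe sets. Z55, a ZO rat on probiotic, was the lowest in 25 members, against 3.66% of all probe sets. Results that use C13 are therefore given with and without it. In the mucosa, a mixture of cell types, fewer cells of a type and less RNA per cell cannot be told apart. The p-values measure the spread between rats that were each sampled once. Markers of enterocytes, the absorptive cells of the mucosa, were high on all arrays, with a mean over 10 genes of at most 12.55 and, in C13, 12.48, while the mean of the 7 striated muscle markers lay at 3.74 to 4.03, below every array's median.

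The members spanned the range of the array. The mean of 57 lay above 4.97, the highest of the 32 array medians, hereafter above the array median, and that of 11 lay below it. The nearest on either side were Ndufb4-ps1 at 5.12 and Ndufa3-ps1 at 4.90. The 11 were the 5 tissue isoforms of complex IV, 5 copies or pseudogenes (Cox6c-ps1, Ndufa3-ps1, Ndufb11b, Ndufb4l1, Ndufb4l3) and Ndufb4. Ndufb4 has near-identical copies, so its probes and theirs may not tell them apart. The mean over the 57 was 9.80 to 10.17 in the 4 ZL baseline rats, at most 10.13 in the 4 ZO baseline rats, with a median of 10.07, 10.02 to 10.60 in the ZL placebo rats and 10.05 to 10.21 in the ZO placebo rats. In the 16 probiotic rats it was lowest at 9.81 (Z55), with a median of 10.10, and highest at 10.25 (Z45). The groups overlapped, and the whole range outside C13 was 9.80 to 10.25. The median SD of the 57 within a group was 0.27 in ZL placebo rats, against 0.15 over all probe sets, and 0.10 without C13. It was 0.18 in ZL baseline, 0.10 in ZO baseline, 0.09 in ZO placebo and 0.15 in probiotic rats.

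**Figure D1:**
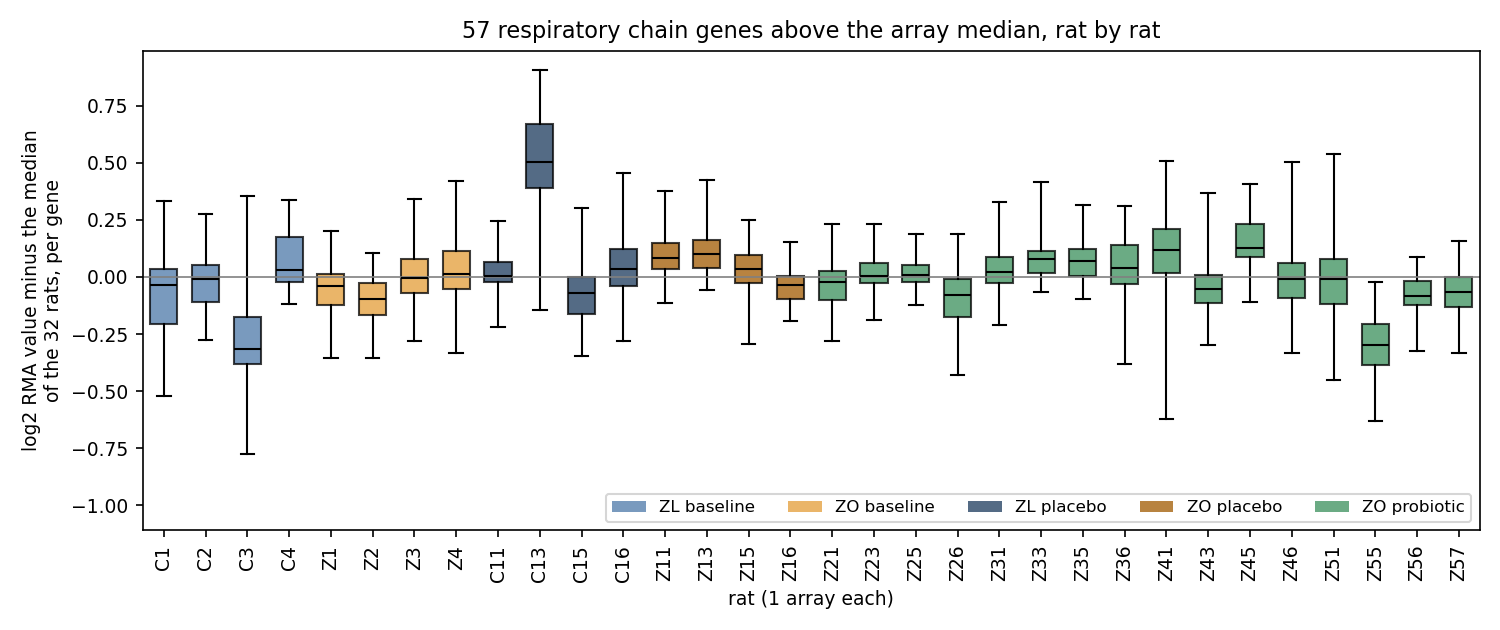
Log2 signal of the 57 members above the array median in each of the 32 rats, as the difference from each gene's median over all rats, with a box for the middle part of the genes, a line for the median and whiskers to the lowest and highest gene, coloured by group. The box of C13 lies above those of all other rats, and the boxes of C3 and Z55 lie lowest.

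Complex IV has pairs of general and tissue isoforms, whose probe sets are described here each on its own. Cox4i1, the general form of a subunit through which ATP regulates the complex, lay at 11.09 ± 0.29 in ZL baseline, 11.27 ± 0.06 in ZO baseline, 11.33 ± 0.16 in ZL placebo and 11.47 ± 0.17 in ZO placebo rats (SD, n = 4 each) and at 11.43 ± 0.15 in probiotic rats (SD, n = 16). Cox4i2, the form known from lung, lay below the array median in all groups, at 3.79 ± 0.30, 3.38 ± 0.19, 3.45 ± 0.19, 3.74 ± 0.07 and 3.49 ± 0.21 in the same order. The forms known from heart and skeletal muscle had group means below it too, Cox6a2 at 3.64 to 3.87 and Cox8b at 3.73 to 3.82. The forms known from testis, Cox6b2 at 4.39 to 4.62 and Cox8c at 2.99 to 3.07, lay below the median too. The general forms had group means of 11.27 to 11.56 for Cox6a1, 11.98 to 12.08 for Cox6b1, 11.70 to 11.86 for Cox7a2 and 12.20 to 12.31 for Cox8a. No member of complex IV passed the test in any of the 8 comparisons.

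Over 30 days on placebo, no member passed the test in ZO rats. Age and placebo feeding change together over these days, in ZO and in ZL rats, and cannot be told apart. Per the paper the ZO rats also turned obese over these days, which cannot be told apart from age and feeding either. Of the 68, 0 were called by limma at an adjusted p under 0.05, against 1.36% of all probe sets, while 7 had an unadjusted p under 0.05. Here and below, no share of all probe sets is given for an unadjusted p. Such counts therefore do not tell the members from the whole array. The members leaned slightly upward, 53 positive and 15 negative, with a median log2 change of 0.07 against -0.02 over all probe sets. For 65 of the 68 the 95% interval of the change lay inside 1.5-fold either way, which held for 82.4% of all probe sets. The 5 members with the smallest p were Cox4i2, Uqcrq, Cox6c-ps1, Ndufb8 and Cox7a2l. Uqcrq, a small subunit of complex III, lay at 10.42, 10.40, 10.64 and 10.64 in Z1 to Z4 and at 10.75, 10.78, 10.78 and 10.68 in the ZO placebo rats. The groups did not overlap, and the difference of 0.22 (SE 0.088) had an adjusted p of 0.262 in limma. Ndufb8, of the membrane arm of complex I, lay at 8.05 to 8.33 before and 8.41 to 8.65 after, a difference of 0.32 (adjusted p = 0.354, limma). Cox7a2l, which joins complexes III and IV, differed by 0.22 (adjusted p = 0.366, limma), and Cox4i2, weak throughout, by 0.36 (adjusted p = 0.257, limma). The transcribed pseudogene Cox6c-ps1 had a difference of -0.20 (adjusted p = 0.353, limma) at levels of 2.88 to 3.35. In the same comparison 4 of 4 red blood cell markers fell and all 7 markers of dividing cells were negative, with 1, Mcm5, past the threshold. The goblet cell marker Spink4 fell by 1.58 (adjusted p = 0.0273, limma), and Jchain of plasma cells rose by 1.48 (adjusted p = 0.0381, limma). Of the 10 enterocyte markers all were positive and 2 rose, Slc2a5 by 0.96 and Fabp1 by 0.25, and the mean of the 10 was at most 12.26 in the baseline and at least 12.41 in the placebo rats. The part of these markers in the member values was not tested.

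In ZL rats the same 30 days gave 1 call, Ndufs5, which rose. Ndufs5 is an accessory subunit of complex I on its intermembrane side, with paired cysteine motifs through which the protein is imported. It lay at 9.15, 9.49, 9.13 and 9.41 in C1 to C4 and at 9.53, 10.25, 9.58 and 9.93 in C11, C13, C15 and C16. Every placebo rat was above every baseline rat, and C13 was the highest. The rise was 0.52 on the log2 scale (SE 0.117, 1.44-fold, adjusted p = 0.0285, limma). Its 2 other probe sets were called in the same direction. The call did not hold without C13, at 0.38 (adjusted p = 0.116, limma), nor without C1 (0.47), C3 (0.47) or C16 (0.49). That 1 of 68 was called, 1.47%, stands beside 0.911% of all probe sets, and without C13 the members called were 0 beside 0.288%.

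Below the threshold the ZL members leaned up as a body. C3, the lowest of 32 in 27 members, is among the baseline rats, and no values of the lean without C3 are given. There were 54 positive and 14 negative differences, a median of 0.19 against -0.00 over all probe sets, and 24 with an unadjusted p under 0.05. Without C13 these were 47 positive, a median of 0.06 and 10. No share of all probe sets stands beside the 24 or the 10. The 95% interval lay inside 1.5-fold for 56 members, beside 81.6% of all probe sets. Next to Ndufs5 came Ndufb3, also of the membrane arm, at 8.20, 8.46, 7.78 and 8.83 in C1 to C4 and 8.56, 9.19, 8.62 and 8.91 after placebo. The difference of 0.50 had an adjusted p of 0.0673 (limma), and the groups overlapped at C4. Ndufs4, an accessory subunit of the NADH-binding arm whose loss causes Leigh syndrome in humans, lay at 11.34, 11.35, 11.02 and 11.29 and then at 11.43, 11.89, 11.39 and 11.51, a difference of 0.30 (adjusted p = 0.0708, limma). The groups did not overlap. Cox6c, a small subunit of complex IV, differed by 0.19 (adjusted p = 0.0793, limma), and the probe set under the pseudogene symbol Ndufs6-ps1 by 0.35 (adjusted p = 0.0745, limma). In each, 1 or more baseline rats lay among the placebo values. Ndufs6 had no entry of its own among the members, and near-identical sequences share probes. Which gene gave the Ndufs6-ps1 signal is therefore uncertain. Without C4, which had the highest mean of the ZL baseline rats, 11 members were called higher, and 3 without C11 and 2 without C2. No share of all probe sets called is given for these runs.

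The ZO change minus the ZL change, which asks whether the 30 days differed between genotypes, passed the test in 0 members and in 0.00342% of all probe sets (8 members had an unadjusted p under 0.05). Differences were negative in 47 members, with a median of -0.09 against -0.01 over all probe sets. Without C13 they were positive in 35, with a median of 0.00. C3 is kept in all of these values. The 5 members with the smallest p were Cox4i2 at 0.70 (SE 0.201, adjusted p = 0.299, limma), Ndufa8 at -0.46 (0.304), Cox6c at -0.22 (0.440), Ndufs5 at -0.41 (0.501) and Uqcrc1 at -0.45 (0.515), with adjusted p-values in parentheses. A change past the threshold in ZL rats and not in ZO rats was thus not itself shown to differ between them.

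**Figure D2:**
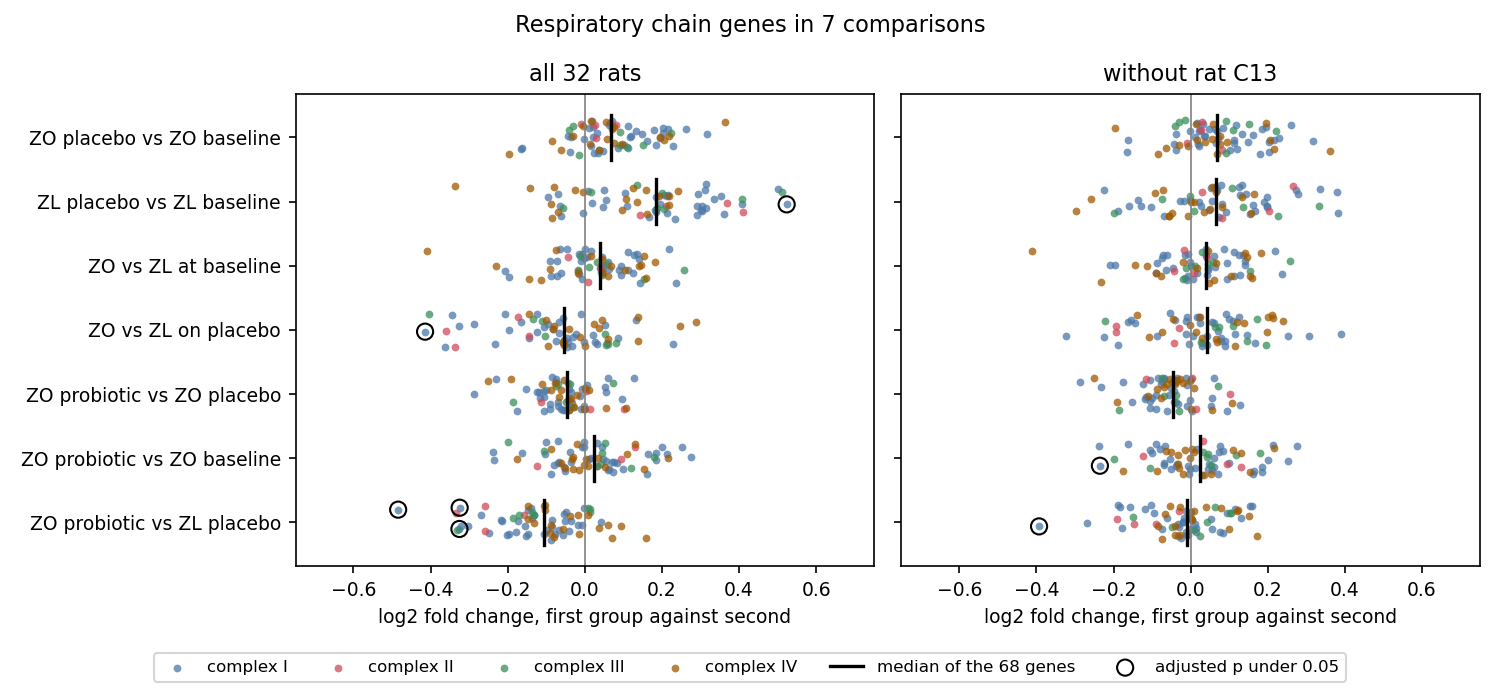
Log2 difference of each of the 68 members (points, coloured by complex) in 7 comparisons, first group minus second, with all 32 rats (left) and without C13 (right); black lines are medians and rings mark an adjusted p under 0.05. The median for ZL placebo against ZL baseline moves from 0.19 to 0.06 without C13, and the rings fall from 5 to 2.

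At baseline no member passed the test between the genotypes. C3, low in many members, is among the ZL rats compared and is kept in the values below. The limma test called 0 members and 0% of the probe sets (5 members had an unadjusted p under 0.05), with 42 members positive in ZO over ZL, and a median of 0.04 against 0.01. The 95% interval lay inside 1.5-fold for 67 of 68 members, beside 83.3% of all probe sets. The 1 member outside it was Cox4i2. The 5 smallest p-values belonged to Cox4i2, with a difference of -0.41 (adjusted p = 0.310, limma), Cox6c at 0.14 (0.339), Cox6a2 at -0.23 (0.36), Uqcrb at 0.15 (0.396) and Ndufs6-ps1 at 0.22 (0.413). Uqcrb, a subunit of complex III that helps to bind ubiquinone, lay at 11.96, 12.04, 11.81 and 12.13 in ZL and 12.15, 12.13, 12.12 and 12.15 in ZO rats.

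After 30 days on placebo, 1 member differed between the genotypes. Ndufa8, an accessory subunit of complex I that like Ndufs5 lies on the intermembrane side and carries paired cysteine motifs, was lower in ZO rats. It lay at 10.74, 11.23, 10.86 and 10.99 in C11, C13, C15 and C16 and at 10.56, 10.64, 10.52 and 10.43 in Z11, Z13, Z15 and Z16. All ZL rats were above all ZO rats, the nearest 2 being C11 and Z13. The difference was -0.41 (SE 0.0939), 1.33-fold lower, with an adjusted p of 0.0218 in limma. At baseline the same gene had lain at 10.58, 10.74, 10.52 and 10.83 in ZL and 10.76, 10.66, 10.71 and 10.69 in ZO rats, a difference of 0.04. Without C13 the difference on placebo was -0.32 (adjusted p = 0.132, limma). The call was also lost without Z11 (-0.42), Z15 (-0.41), Z16 (-0.38) or C16 (-0.40), the difference staying near its size. The share of members called, 1.47%, stands beside 1.04% of all probe sets, and without C13 0 members stand beside 0.64%.

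The next members in that comparison were the core protein Uqcrc1 of complex III at -0.40 (adjusted p = 0.154, limma), the core subunit Ndufs1 of complex I at -0.33 (0.198), and Sdha and Sdhd of complex II at -0.36 (0.202) and -0.34 (0.290). Uqcrc1 lay at 10.87, 11.72, 10.86 and 11.26 in ZL and 10.81, 10.82, 10.64 and 10.82 in ZO placebo rats, and the groups did not overlap. Without C13 these 4 differences were -0.22, -0.19, -0.19 and -0.19. Of all members, 47 were negative, with a median of -0.06 against -0.00 over all probe sets, and 9 had an unadjusted p under 0.05. Without C13, 45 were positive and the median was 0.04. The interval lay inside 1.5-fold for 61 members, beside 82.3% of all probe sets.

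Between probiotic and placebo no member passed the test in ZO rats. The test called 0 of 68 members, beside 0.00342% of all probe sets, and 2 had an unadjusted p under 0.05. All 68 intervals lay inside 1.5-fold, which 93.1% of all probe sets did. Differences were small, from -0.29 to 0.13, and negative in 53 members, with a median of -0.05 against 0.01. The 5 smallest p-values belonged to Ndufb11, Cox4i2, Ndufs7, Ndufc2 and Cox8a, at -0.29, -0.25, -0.17, -0.11 and -0.11, each with an adjusted p of 0.998 (limma). Ndufb11, of the membrane arm of complex I, lay at 10.33, 10.38, 10.34 and 10.28 in ZO placebo rats and at 9.67, 10.01 and 10.49 (lowest, median, highest) in probiotic rats. Ndufs7, the core subunit that holds the iron-sulphur cluster next to ubiquinone, lay at 11.70 to 11.76 and at 11.31, 11.57 and 11.80. In both the placebo values lay within the probiotic range. Leaving out Z55, chosen after seeing the data, left 0 members called.

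Probiotic rats set against the ZO rats killed at baseline gave 0 calls among the probe sets used, where 5.61% of all probe sets were called and 7 members had an unadjusted p under 0.05. Age, probiotic feeding and the onset of obesity differ together in this comparison and cannot be told apart. All 68 intervals again lay inside 1.5-fold (87.4% of all probe sets). Ndufa8 came nearest, at 10.24, 10.50 and 10.64 (lowest, median, highest) in probiotic rats against 10.66 to 10.76 at baseline. The groups did not overlap, and the difference was -0.24 (SE 0.0742, adjusted p = 0.057, limma). Without C13, which is in neither group but enters the shared estimate of the spread, the adjusted p was 0.0334 (SE 0.0680, limma), and 1 member stood beside 6.14% of all probe sets. Between ZO placebo and ZO baseline rats Ndufa8 differed by -0.17. Cox6a2 (0.22, adjusted p = 0.0943), the probe set under the pseudogene symbol Ndufa13-ps1 (0.25, 0.138), Uqcrq (0.18, 0.141) and Ndufb3 (0.28, 0.152) followed, all positive in limma. Ndufa13 had no entry of its own among the members, so which gene gave the Ndufa13-ps1 signal is uncertain. Without Z1, Cox6a2 was the 1 member called, with no share of all probe sets given for that run.

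The probiotic rats differ from ZL rats on placebo in both genotype and treatment, which cannot be told apart in this comparison. They were lower in 3 members, all of complex I. The share of 4.41% stands beside 4.66% of all probe sets. Ndufa8 was lower by the most, its 16 values ending at 10.64 while the 4 ZL values began at 10.74. The difference was -0.48 (SE 0.0742), 1.40-fold lower, with an adjusted p of 0.000134 in limma, and the exact two-sided permutation p of 0.000206 is the smallest that this design can give. Without C13 it was -0.39 (adjusted p = 0.00334, limma), the 1 member called beside 2.34% of all probe sets. The group means of Ndufa8 were 10.95 in ZL placebo, 10.54 in ZO placebo and 10.47 in probiotic rats. Ndufs1, the largest core subunit of complex I, lay at 9.79, 10.30, 9.61 and 9.87 in the ZL rats and at 9.24, 9.57 and 9.85 in probiotic rats. Its difference of -0.33 (adjusted p = 0.0288, limma) became -0.19 without C13 (adjusted p = 0.309). Ndufs5 lay at 9.53 to 10.25 in the ZL rats and at 9.21, 9.49 and 9.76 in probiotic rats, a difference of -0.32 (adjusted p = 0.037, limma), and -0.18 without C13 (0.349). Both calls were also lost without C16, at -0.33 for Ndufs1 and -0.29 for Ndufs5. Of the other probe sets of Ndufs5, that at -0.31 was called here and that at -0.27 was not. Uqcrc1 (-0.33, adjusted p = 0.0594) and Ndufs4 (-0.22, 0.0638) came next. Of all members, 58 were negative, with a median of -0.10 against 0.01, and 16 had an unadjusted p under 0.05. Without C13 the median was -0.01. This comparison and the one between genotypes on placebo share the 4 ZL rats, so their values are not independent.

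**Figure D3:**
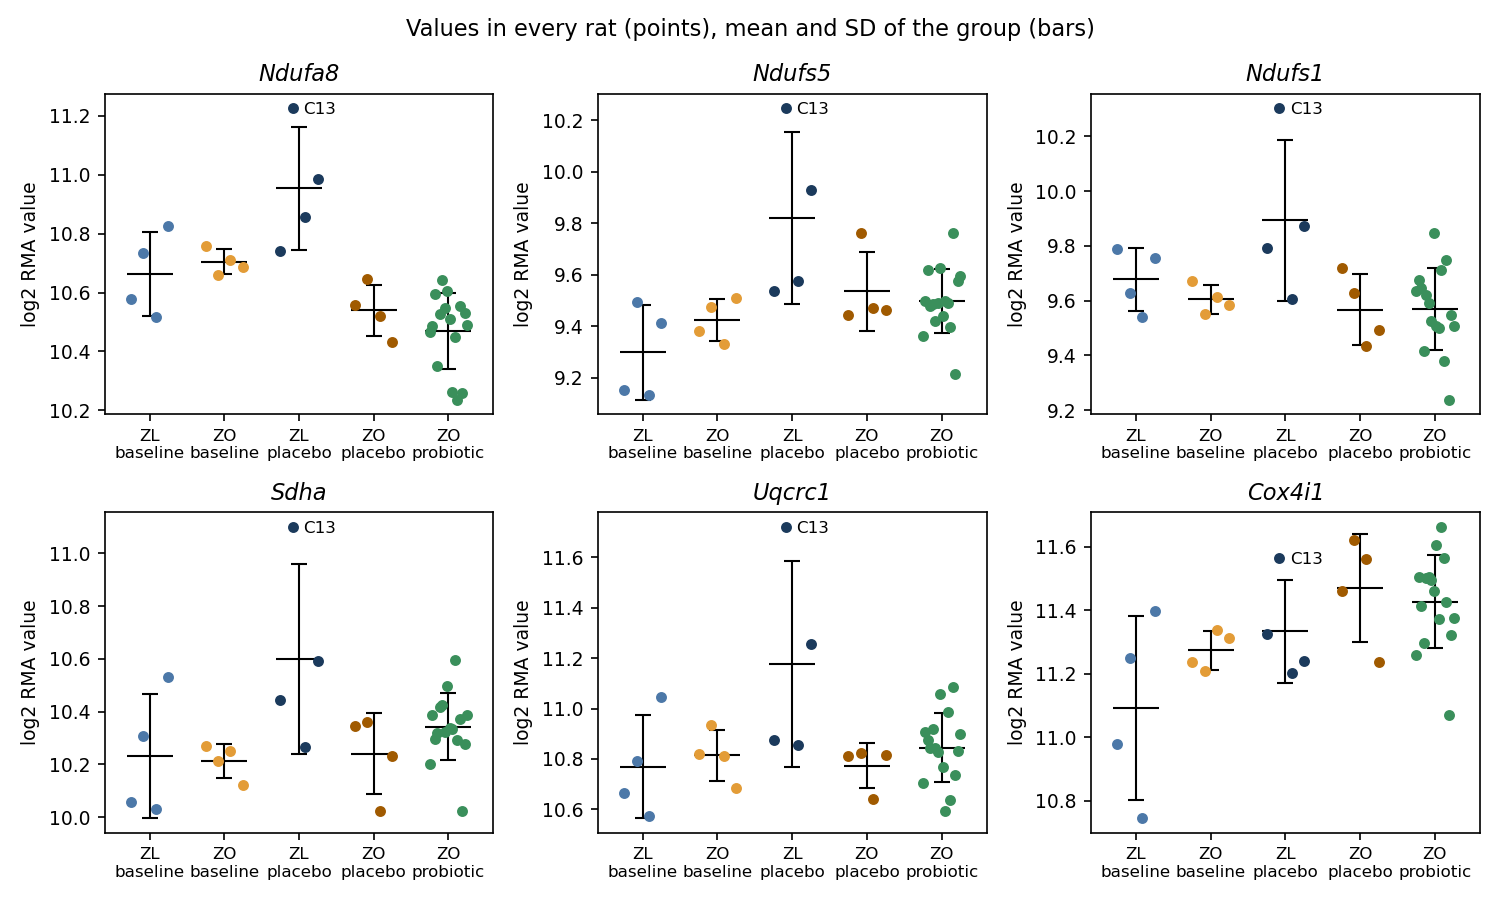
Log2 signal of Ndufa8, Ndufs5, Ndufs1, Sdha, Uqcrc1 and Cox4i1 in each rat (points) by group, with the mean and SD. In 5 of the 6 the highest point of all is C13, and in Ndufa8 the probiotic rats end at 10.64, below the lowest ZL placebo rat at 10.74.

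The other members named by their role were not called in any comparison. Among the core subunits of complex I, group means lay at 8.87 to 9.23 for Ndufs3, at 8.57 to 8.93 for Ndufs8, at 10.16 to 10.48 for Ndufv1, which binds NADH, and at 11.02 to 11.32 for Ndufv2. In each of these 4 the highest mean was that of the ZL placebo rats, but without C13 this held for Ndufv1 alone (10.34). The 4 subunits of complex II, which is also succinate dehydrogenase of the TCA cycle, had their highest mean there too, also without C13. Sdha, its flavoprotein, lay at 10.06, 10.31, 10.03 and 10.53 in C1 to C4, at 10.27, 10.21, 10.25 and 10.12 in Z1 to Z4, at 10.44, 11.10, 10.27 and 10.59 in ZL placebo and at 10.35, 10.36, 10.02 and 10.23 in ZO placebo rats, with 10.02, 10.34 and 10.60 (lowest, median, highest) on probiotic. Without C13 its highest rat was the probiotic rat at 10.60. Sdhb, the iron-sulphur subunit, had group means of 10.23 to 10.48, and the membrane anchors Sdhc and Sdhd had 11.83 to 12.09 and 10.12 to 10.52. Of complex III, the Rieske protein Uqcrfs1 had its highest mean in ZL placebo rats, 9.51, as did the core protein Uqcrc2, 11.19, but neither did without C13 (9.34 and 11.05). Cox7a2, Cox7b and Ndufc2 each had another probe set below the array median, at 3.31, 3.75 and 4.09, which differed in sign from the one used in some comparisons. The probe sets of Cox6b1, Uqcrb and Ndufa13-ps1 differed in sign only where all their differences were under 0.02 in size. Ndufv3, which holds an accessory role in complex I, had a second probe set that differed in sign in some comparisons and was called lower in probiotic than in ZO baseline rats, at -0.32, where the one used gave -0.08.

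Among the members C13 stood farthest from the other rats. Against the mean of the other 3 ZL placebo rats, it was higher by a median of 0.56 in the 6 core and 0.49 in the 25 accessory subunits of complex I, 0.55 in complex II, 0.55 in complex III and 0.38 in the 11 general subunits of complex IV, and by 0.01 over all probe sets. The 5 tissue isoforms differed by -0.07. Single members in C13 against the other 3 were 11.10 against 10.27 to 10.59 for Sdha, 11.72 against 10.86 to 11.26 for Uqcrc1 and 11.60 against 11.05 to 11.06 for Uqcrc2. Other lists of the same organelle were higher as well, ATP synthase by 0.44 (highest of 32 in 17 of 20 genes), the TCA cycle by 0.33, the mitochondrial ribosome by 0.35 and assembly factors by 0.35. The cytosolic ribosome was at -0.00. Ppargc1a, the coactivator known to drive mitochondrial biogenesis, lay at 10.0 in C13 and at 7.13 to 9.13 in the other rats, while the 11 regulators had a median of 0.03.

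C13 differed in markers of gut position too. The mean of the 4 ileal markers was 9.67 in C13 and 11.4 to 12.4 in the other 31 rats, and C13 was the lowest in all 4. Fabp6, the ileal bile acid binding protein, lay at 8.71 against 12.99 to 13.41, Slc10a2, the ileal bile acid transporter, at 7.01 against 9.11 to 11.94, and Slc51a and Slc51b, which export bile acids, at 11.60 against 11.95 to 12.49 and 11.36 against 11.51 to 12.15. Of 4 colon markers, Aqp8 was highest in C13 (8.49 against at most 6.35), as was Car4 (11.03 against at most 10.97), while Slc26a3 was lowest (11.13 against at least 11.54) and Car1 lay within the range of the others. Of 6 enteroendocrine markers 5 were lowest in C13 and Cck was highest (7.32 against at most 6.87). The enterocyte mean of 12.48 lay inside the range of the other rats. Of the 10 enterocyte markers, C13 was the highest of 32 in 3 and the lowest in 0. The 3 were Alpi (12.77 against at most 12.58), Slc5a1 (13.04 against at most 12.95) and Vil1 (12.39 against at most 12.34). All 4 ileal markers were above the array median in C13, and the part of these markers in the member values was not tested. C3 had the highest smooth muscle mean of all rats (7.69) and the lowest cytosolic ribosome mean (10.1), whose part in its low member values was not tested. In Z55 all 57 members above the array median lay below the median of its group, and its array median of 4.97 was the highest of 32.

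**Figure D4:**
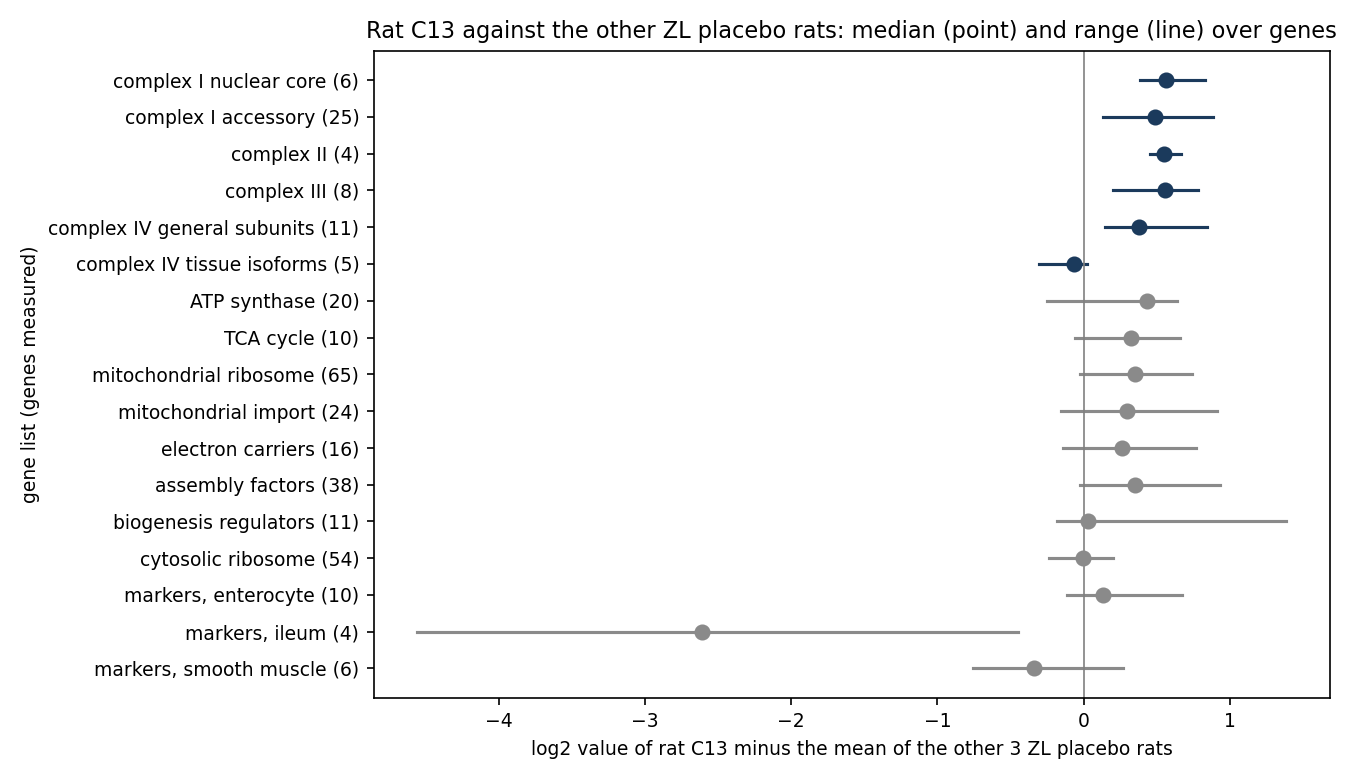
Difference in log2 signal between C13 and the mean of the other 3 ZL placebo rats, as the median (point) and range (line) over the genes of each list, with respiratory chain lists in blue and other lists in grey. The medians of complexes I, II and III lie at 0.49 to 0.56, those of the cytosolic ribosome and tissue isoforms near 0, and that of the ileal markers at -2.61.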

How the data were processed

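Per the methods, the authors hybridised mucosal RNA to Affymetrix Rat Gene 1.1 ST arrays and normalised the signals with RMA, naming Affymetrix Expression Console and Partek Genomics Suite as software. The deposited values are log2 signals that had lost their decimal point in all but 161 of 934848 values, so their unit was recorded as a score. A value that starts with 10, 11, 12 or 13 was read as having 2 digits before the point and any other as having 1, which gave values of 1.58 to 13.5. The design had assumed log2 values, and the same test was used. Array signals carry no read depth, and the number of rats limits the precision.

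With limma 3.58.1 in R 4.3.3, 1 model of 5 group means was fitted over 29214 probe sets, two-sided, with Benjamini-Hochberg adjustment and a threshold of 0.05. Symbols came from the platform annotation, where 18644 probe sets had 1 symbol, 962 several and 9608 none. A gene was given by its probe set with the highest mean. Genes under the symbol of a copy or pseudogene are uncertain, since near-identical sequences share probes. Exact permutation tests were two-sided. The members and the gene lists were chosen with earlier results of these data known. Named were the called members of each comparison, the members with the smallest p up to 5 where fewer were called, and core subunits and isoform pairs by role. The scripts were tested on simulated data. Alternatives were quantile normalisation, median centring, filters on probe sets, other models, the methods' t-test and leaving out rats. Leaving out Z55 was added after seeing the data. Promoters are from RefSeq (GRCr8).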

Additional observations from a re-analysis of the deposited data

Results flagged for a closer look

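Of 148 groups of 4 rats tested (37 named members in 4 groups), 9 held a rat whose gap to the nearest other exceeded the critical share of the group's range, where chance gives about 1 in 20. In ZL baseline rats these were Cox6a2 in C1 (3.96, the others 3.84), Ndufc2 in C3 (11.8, the others 11.9) and Ndufs7 in C4 (11.6, the others 11.8). In ZO baseline rats they were Ndufs3 in Z2 (8.77, the others 9.03 to 9.06) and Ndufs4 in Z4 (11.5, the others 11.3 to 11.4). In ZO placebo rats they were Cox6c-ps1 in Z15 (2.88, the others 3.04 to 3.06), Ndufs5 in Z13 (9.76, the others 9.44 to 9.47) and Uqcrc1 in Z15 (10.6, the others 10.8). In ZL placebo rats it was Uqcrc2 in C13 (11.6, the others 11.05 to 11.06).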

How the results depend on the processing

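No named difference turned its direction under any alternative run, 26 values lost and 16 gained a call, and 564 kept their side of the threshold. Few named differences were called in the main run, so the 564 do not measure how stable the calls were. Of the counts of members called, 109 stayed the same and 37 moved. Over 30 days in ZL rats, the 1 member called became 0 under quantile normalisation, median centring, a model of only the 2 groups and array weights, 2 by the methods' t-test unadjusted and 0 after Benjamini-Hochberg. Leaving out 1 rat gave 0 (without C1, C3, C13 or C16) to 11 (without C4). In ZO rats the methods' t-test unadjusted gave 9 members against 0. For ZO against ZL on placebo, 1 became 0 in a model of only the 2 groups and 0 to 1 without single rats. For probiotic against ZO baseline, 0 became 1 under quantile normalisation, with the lowest 30% of probe sets left out and with 1 probe set per gene, 2 with only the groups compared and 2 with array weights, and 0 to 1 without single rats. For probiotic against ZL placebo, 3 became 8 under quantile normalisation, 7 with 1 probe set per gene, 1 each with median centring, only the groups compared and array weights, and 1 (without C13 or C16) to 9 (without C15), with 6 without C11. The cause was not tested. Except for the runs without C13, no share of all probe sets called is given for these alternatives. The counts therefore do not tell whether the members moved apart from the whole array. Leaving out Z55, chosen after seeing the data, moved none of the 3 probiotic counts. With 4 rats a group, the median SE of a member was 0.115.

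Some rat numbers are shared by ZL and ZO rats, and deviations of same-numbered rats correlated at -0.04 to 0.23. No values of differently numbered rats are given beside these, so they do not decide whether the numbers pair the rats. The main model left them unpaired. With the number as a replicate block, 0 members were called between genotypes on placebo (Ndufa8 -0.41, adjusted p = 0.161, limma), and the block moved no other count of members called.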

Other observations

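Genes around the respiratory chain were called beside the members. Etfdh, which passes electrons from fatty acid oxidation to ubiquinone, was higher in ZO placebo rats than in ZO baseline rats by 0.77 (adjusted p = 0.0405, limma) and than in ZL placebo rats by 0.82 (adjusted p = 0.0304, limma), and both calls held without C13. It was the only one called of 16 electron carrier genes, and the others went in both directions. Of all probe sets, 1.36% and 1.04% were called in these comparisons. Citrate synthase (Cs), which opens the TCA cycle, was lower in ZO than in ZL rats on placebo, with a difference of -0.53 (adjusted p = 0.0109, and 0.0537 without C13, limma). Idh3a and Sucla2 of the same cycle were lower too, with differences of -0.35 and -0.38 and adjusted p of 0.158 and 0.207 without C13 (limma). These were the genes called of 10 measured in the cycle, beside 1.04% of all probe sets. Suclg1 (means of 9.98 in ZL and 10.09 in ZO placebo rats) and Suclg2 (10.18 and 10.21) went the other way, and the remaining genes were lower in ZO rats. Of 65 mitochondrial ribosomal genes, 2 were higher and 5 lower in probiotic rats than in ZO baseline rats, where 5.61% of all probe sets were called, led by Mrpl38 at -0.63 (adjusted p = 0.00368, limma).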
